A study of Mus musculus with 8 samples.

Results

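Respiratory complex I subunit genes were examined in mouse blastocysts that differed in Isca2. The 38 genes were chosen by name: they are the protein-coding genes of the GENCODE annotation (GRCm38) whose symbol has the form Ndufa, Ndufb, Ndufc, Ndufs or Ndufv followed by a number, together with Ndufab1. They were 38 of the 55471 genes in the files, and assembly factors were kept apart. Of the 38 genes, 37 had enough counts to be tested. Ndufa4l2, a paralogue of Ndufa4, had 0 counts in all 8 libraries. The 5 subunits that carry iron-sulfur clusters, Ndufs1, Ndufs7, Ndufs8, Ndufv1 and Ndufv2, are described first.

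Complex I is the entry point of the mitochondrial respiratory chain. Its matrix arm takes electrons from NADH, passes them along a chain of iron-sulfur clusters to ubiquinone, and its membrane arm pumps protons. Core subunits carry the catalysis and include proteins encoded by mitochondrial DNA, while accessory subunits surround and stabilise both arms. ISCA2 is a mitochondrial protein that acts in the later steps of iron-sulfur cluster assembly. Preimplantation embryos make part of their ATP by mitochondrial respiration.

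RNA sequencing covered blastocysts at embryonic day 4.5 in 8 libraries. There were 3 libraries homozygous for the G77S substitution in Isca2 (Isca2 G77S/G77S, here G77S), 2 knockout libraries with both Isca2 alleles lost (Isca2 -/-, here KO) and 3 wild-type libraries (WT). The protocol describes mating of Isca2+/- females, superovulated with 6.5 IU of pregnant mare serum gonadotropin and 5 IU of human chorionic gonadotropin, with Isca2+/- males, followed by embryo culture and amplification of full-length cDNA. The cross behind the G77S embryos, the number of embryos per library, their sex and any batch are not in the labels. Nothing shows that libraries of a genotype came from separate litters, so their spread, on which the p-values rest, can be technical in part. The study's title names the interaction of ISCA2 with TET proteins around implantation.

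Libraries held 10323965 to 23842619 expected counts. Isca2 was at 89.1, 105 and 133 CPM (counts after scaling every library to one total) in G77S, at 4.84 and 6.20 CPM in KO, and at 86.9, 173 and 154 CPM in WT, so the KO labels stood apart and the G77S range overlapped that of WT. The fragment length implied by the deposited effective lengths was 182.4 to 186.1 bases in G77S, 244.4 and 292.1 bases in KO, and 243.7 to 276.5 bases in WT, so library preparation and genotype cannot be told apart for G77S. Markers of trophectoderm, the outer layer of the blastocyst, were detected in every library (15 of 15 genes). Their summed level was 10096 to 13055 CPM in G77S, 34004 and 37406 CPM in KO, and 32999 to 35395 CPM in WT. Fabp3 was the largest part of that sum (a mean of 4606 CPM in G77S, 18743 CPM in KO and 18204 CPM in WT). In G77S relative to WT, 7 of the 15 genes fell (2.09% of all genes did), while Cdx2 and Tead4 had positive log2 fold changes. In KO relative to WT, 0 of the 15 passed the test, and 12 had negative log2 fold changes (median -0.74). Summed markers of epiblast, the lineage that forms the embryo proper, were at 5515 to 7180 CPM in G77S, 1452 and 2421 CPM in KO, and 3068 to 5867 CPM in WT, and most of that sum was Dppa3 (a mean of 6334 CPM in G77S, 1668 CPM in KO and 4220 CPM in WT). Over the 12 epiblast genes tested, 2 rose in G77S and 0 fell relative to WT (1.3% and 2.09% of all genes did), with 11 positive log2 fold changes. In KO relative to WT, 1 rose and 0 fell (0.0788% and 0.043% of all genes did), with 8 positive and a median of 3.25. Some of the positive genes, such as Sox2 and Esrrb, had 0 counts in WT. Nanog was lower in all mutant libraries, with log2 fold changes of -1.13 in G77S and -2.69 in KO versus WT, and passed neither test. Of 13 tested genes of primitive endoderm, the lineage that faces the blastocoel, 2 rose in G77S versus WT (1.3% of all genes did). In G77S versus KO 4 fell (2.43% of all genes), and in KO versus WT 2 rose (0.0788% of all genes). The endoderm sum was nonetheless 590 to 1173 CPM in G77S, 1169 and 1802 CPM in KO, and 1138 to 1467 CPM in WT. It was mostly Dab2, which is also among the 15 trophectoderm genes. Summed markers of cumulus and granulosa cells reached at most 0.0927 CPM and those of blood at most 2.24 CPM in any library. In whole embryos, fewer cells of a type and less RNA per cell cannot be told apart. The marker lists were chosen with earlier results of these data known. Their shares are therefore set beside those of all genes as a description only.

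The start regions of 4 of the genes are shown because they carry the clearest sequence feature of the group, a short motif just inside the transcript, or belong to genes that passed the test in G77S. They are RefSeq windows on GRCm38.p6, 250 bases before to 50 bases after the transcript start, written 5′ to 3′ along the gene's strand. Capitals mark the letters AAGATGGC, the core of the site that the transcription factor YY1 binds. These letters also hold ATG, the start codon, and binding by YY1 was not tested. Ndufs4 lies on the minus strand at chr13:114388045-114388344, Ndufs7 on the plus strand at chr10:80249199-80249498, Ndufa1 on the minus strand at chrX:37191189-37191488 and Ndufa10 on the minus strand at chr1:92473709-92474008.
Ndufs4: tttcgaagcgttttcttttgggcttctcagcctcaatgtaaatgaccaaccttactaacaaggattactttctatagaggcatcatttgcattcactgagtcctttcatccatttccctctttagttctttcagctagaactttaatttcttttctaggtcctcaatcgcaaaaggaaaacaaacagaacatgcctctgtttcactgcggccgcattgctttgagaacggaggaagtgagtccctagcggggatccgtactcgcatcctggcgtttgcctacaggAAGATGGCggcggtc
Ndufs7: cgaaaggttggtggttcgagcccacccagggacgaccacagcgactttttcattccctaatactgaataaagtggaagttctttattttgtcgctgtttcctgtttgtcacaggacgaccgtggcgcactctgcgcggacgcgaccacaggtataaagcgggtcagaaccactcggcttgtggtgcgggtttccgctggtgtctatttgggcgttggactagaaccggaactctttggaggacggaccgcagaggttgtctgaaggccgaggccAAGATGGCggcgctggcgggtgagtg
Ndufa1: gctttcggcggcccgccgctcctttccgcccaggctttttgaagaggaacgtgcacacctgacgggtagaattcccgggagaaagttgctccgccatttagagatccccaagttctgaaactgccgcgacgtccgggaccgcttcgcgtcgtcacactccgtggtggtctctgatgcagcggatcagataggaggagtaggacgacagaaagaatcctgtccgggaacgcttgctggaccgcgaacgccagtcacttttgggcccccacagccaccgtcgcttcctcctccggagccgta
Ndufa10: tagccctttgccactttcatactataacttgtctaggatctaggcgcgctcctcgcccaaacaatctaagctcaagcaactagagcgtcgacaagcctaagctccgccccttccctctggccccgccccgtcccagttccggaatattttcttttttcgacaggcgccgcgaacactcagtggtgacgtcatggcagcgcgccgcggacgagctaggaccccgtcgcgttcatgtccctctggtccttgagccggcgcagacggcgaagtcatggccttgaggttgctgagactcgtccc

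Windows of this kind were given for 33 of the 38 genes (35 windows). AAGATGGC, searched on both strands, stood in 7 of the 35 windows (20.0%) and in 2.75% of all 32851 windows. The 7 genes were Ndufa3, Ndufa9, Ndufb8, Ndufc1, Ndufs4, Ndufs6 and Ndufs7, and in each the motif began 23 to 39 bases after the start and read along the gene's strand. GCGCATGC, part of the site of NRF1, a factor that acts on many respiratory chain genes, stood in 3 windows (8.6%, against 2.71% of all windows), those of Ndufa6, Ndufa8 and Ndufa11, and CCGGAAGT, a form of the site of the ETS factor GABPA, in 1 window (2.9%, against 3.89%). TATAAA stood in 5 windows (14.3%, against 13.6%). The windows held a median of 20 CpG dinucleotides, against 7 over all windows. Of the 7 genes with AAGATGGC, Ndufs4 passed the test in G77S, with a log2 fold change of -1.16 ± 0.25 (SE) versus WT. The others were Ndufb8 at -0.77, Ndufs6 at -0.61, Ndufa9 at -0.45, Ndufs7 at -0.22, Ndufc1 at -0.06 and Ndufa3 at 0.21 ± 0.43. A link between the motif and these values was not tested.

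Levels per transcript length (TPM, reads divided by transcript length and scaled to the same total in each library) spanned a wide range within the complex. In WT, the mean was highest for Ndufb8 at 1761 ± 325 TPM (SD, n = 3), a subunit of the membrane arm, followed by Ndufs5 at 1593 ± 328 TPM, whose spread overlapped it. The lowest was Ndufv1 at 52.5 ± 7.93 TPM, next to Ndufs1 at 69.3 ± 7.98 TPM. Among the cluster-carrying subunits, Ndufv2 and Ndufs7 were at 484 ± 106 and 464 ± 125 TPM in WT and did not differ beyond their spread. Ndufv1 was again lowest in KO at 54.3 TPM, while in G77S Ndufs1 was lowest at 64.6 ± 13.9 TPM and Ndufv1 was at 79.6 ± 6.71 TPM. The order of all 38 genes by mean TPM was close to that of WT in both mutants, with a Spearman coefficient of 0.894 for G77S and 0.97 for KO, given as a description since the genes share libraries and lengths.

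None of the 5 iron-sulfur subunits passed the test in any comparison (edgeR quasi-likelihood test, adjusted p under 0.05 over 13953 genes). At an unadjusted p under 0.05, Ndufs1 and Ndufv2 were lower in G77S versus both WT and KO (9.78% and 9.74% of all genes were). No subunit of the 5 reached it in KO versus WT. Ndufv2, which holds a cluster next to the NADH site, had 337, 245 and 353 CPM in G77S, 601 and 708 CPM in KO, and 332, 610 and 641 CPM in WT. The G77S libraries lay below both KO libraries and below WT 2 and WT 3, with WT 1 among them. Its log2 fold change was -0.76 ± 0.27 for G77S versus WT (adjusted p = 0.142) and -1.07 ± 0.29 for G77S versus KO (adjusted p = 0.0683). It was called lower versus WT with no filter, with the length trend removed and without WT 1, and versus KO also with a stricter filter, with only the 2 groups compared and with DESeq2.

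Ndufs1, the largest subunit and the one with most clusters, had 84.8, 133 and 133 CPM in G77S, 216 and 188 CPM in KO, and 178, 186 and 164 CPM in WT. All G77S libraries lay below all others, and its log2 fold change for G77S versus WT was -0.59 ± 0.23 (adjusted p = 0.177). Part of that difference was absent on the per-length scale, where Ndufs1 stood at 64.6 ± 13.9 TPM in G77S and 69.3 ± 7.98 TPM in WT (n = 3 each), beside deposited lengths of 1786 to 2102 bases in G77S and 2135 to 2274 bases in WT. In G77S versus KO, where its log2 fold change was -0.79 ± 0.25 (adjusted p = 0.108), it was called with DESeq2 and with the length trend removed.

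Ndufs8, a ferredoxin-like subunit, had a positive log2 fold change in every comparison. It had 229, 247 and 223 CPM in G77S, 168 and 235 CPM in KO, and 131, 223 and 188 CPM in WT. The lowest G77S value stood just above the highest WT value, and the log2 fold change was 0.37 ± 0.24 (adjusted p = 0.433). Ndufv1, which binds NADH and FMN, had 109, 101 and 94.3 CPM in G77S, 121 and 76.7 CPM in KO, and 79.0, 108 and 75.4 CPM in WT, with ranges that overlapped. Ndufs7, which carries the last cluster before ubiquinone, had 312, 243 and 251 CPM in G77S, 353 and 392 CPM in KO, and 209, 433 and 297 CPM in WT, so WT alone spanned both mutants. Over the 5 genes the median log2 fold change was -0.22 for G77S versus WT, -0.47 for G77S versus KO and 0.20 for KO versus WT. The plot of these subunits by library shows Ndufs1 lowest in G77S and Ndufs8 just above WT there, with Ndufs7 in G77S below both KO libraries but inside the WT range.

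**Figure D1:**
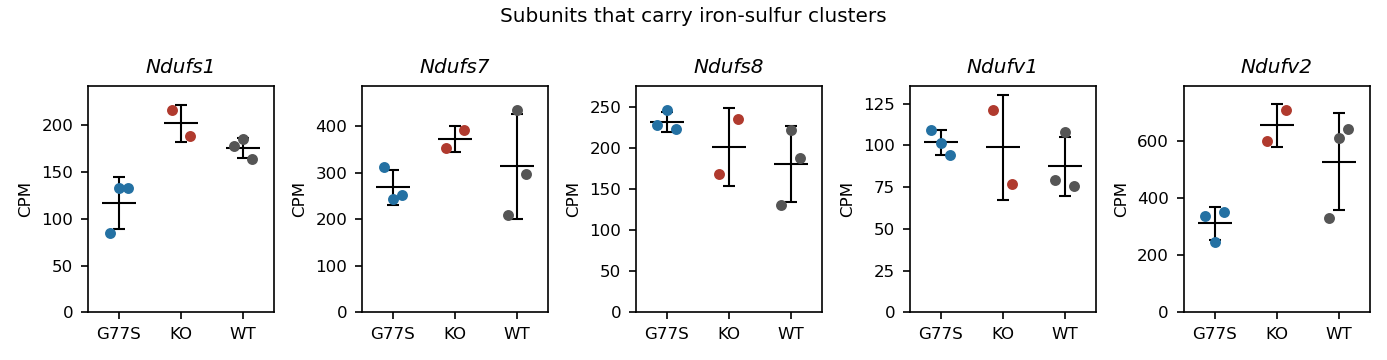
CPM of the 5 subunits that carry iron-sulfur clusters, by genotype (x axis, G77S, KO and WT) on a linear y axis from 0. Points are libraries, long bars are means and error bars are SD (n = 3, 2 and 3): the Ndufs1 points of G77S, 84.8 to 133 CPM, lie below all others, and those of Ndufs8, 223 to 247 CPM, lie just above the WT points.

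In G77S versus WT, 3 of the 37 tested genes fell and 0 rose, where 2.09% of all 13953 genes were called lower and 1.3% higher. Those 3 were Ndufs4, Ndufa1 and Ndufa10, none of which carries a cluster. At an unadjusted p under 0.05, 17 genes were lower and 1 was higher, against 9.78% and 10.3% of all genes. The log2 fold change was negative for 33 of the 37 (positive for 51.6% of all genes), and their median was -0.50 (range -1.20 to 0.52), beside a median of 0.03 over all genes tested. All 3 G77S libraries lay below all 3 WT libraries for 8 genes (background 11.8%) and above them for 2, Ndufa4 and Ndufs8 (background 17.2%), so the lower shift was spread over the group while separation from every WT library was not.

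Ndufs4 is an accessory subunit that holds the NADH-oxidising end onto the matrix arm, and its loss in mice causes a Leigh-like brain disease. The gene (ENSMUSG00000021764) spans chr13:114287795-114388258 on the minus strand. It had 170, 174 and 223 CPM in G77S, 423 and 591 CPM in KO, and 288, 484 and 491 CPM in WT. All G77S libraries lay below all others. In G77S versus WT it fell by 1.16 ± 0.25 (SE, log2 scale, adjusted p = 0.0378), and the drop was also seen per length, at 321 ± 60.5 TPM in G77S and 593 ± 89.2 TPM in WT (n = 3 each).

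Ndufa1 encodes a small single-pass subunit of the membrane arm and is X-linked (ENSMUSG00000016427, chrX:37187588-37191163, minus strand). It had 163, 76.4 and 108 CPM in G77S, 217 and 337 CPM in KO, and 262, 251 and 286 CPM in WT. The G77S libraries were lowest and the WT libraries close together. It fell in G77S versus WT by 1.20 ± 0.29 on the log2 scale (adjusted p = 0.0496), just inside the threshold. Only Ndufb11 among the other genes is also X-linked, with a log2 fold change of -0.60 ± 0.24 (adjusted p = 0.197). The libraries WT 1 and G77S 1 held almost no Y-linked RNA, and with a term for it in the fit Ndufa1 was still called. Its call held in 11 of 20 alternatives and was lost with RLE scaling, with the replicate block, and without any 1 of the libraries other than G77S 1 (adjusted p 0.000288 to 0.192 over the 20).

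Ndufa10 is a membrane-arm subunit with a nucleoside-kinase fold (ENSMUSG00000026260, chr1:92439010-92473860, minus strand). It had 377, 313 and 387 CPM in G77S, 557 and 586 CPM in KO, and 742, 614 and 584 CPM in WT. The G77S libraries were the lowest, and the gene fell versus WT by 0.85 ± 0.19 on the log2 scale (adjusted p = 0.0373). On the per-length scale it stood at 270 ± 23.4 TPM in G77S and 315 ± 71.2 TPM in WT (n = 3 each), and the call was lost (log2 fold change -0.20, limma adjusted p = 0.55, range over 20 alternatives 0.000837 to 0.55), as it was with the replicate block. The deposited length of the gene, weighted by its isoforms, was 1393 to 1549 bases in G77S and 1762 to 1910 bases in WT, and its part in the count difference was not tested. All 3 calls were lost without G77S 2, G77S 3, WT 2 or WT 3, where the share of all genes called lower was also down, to 0.369%, 0.791%, 1.05% and 1.1%. Ndufa1 alone was called without G77S 1 (0.705% of all genes), and 9 genes, Ndufs4 and Ndufa10 among them but not Ndufa1, without WT 1 (2.8%).

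**Figure D2:**
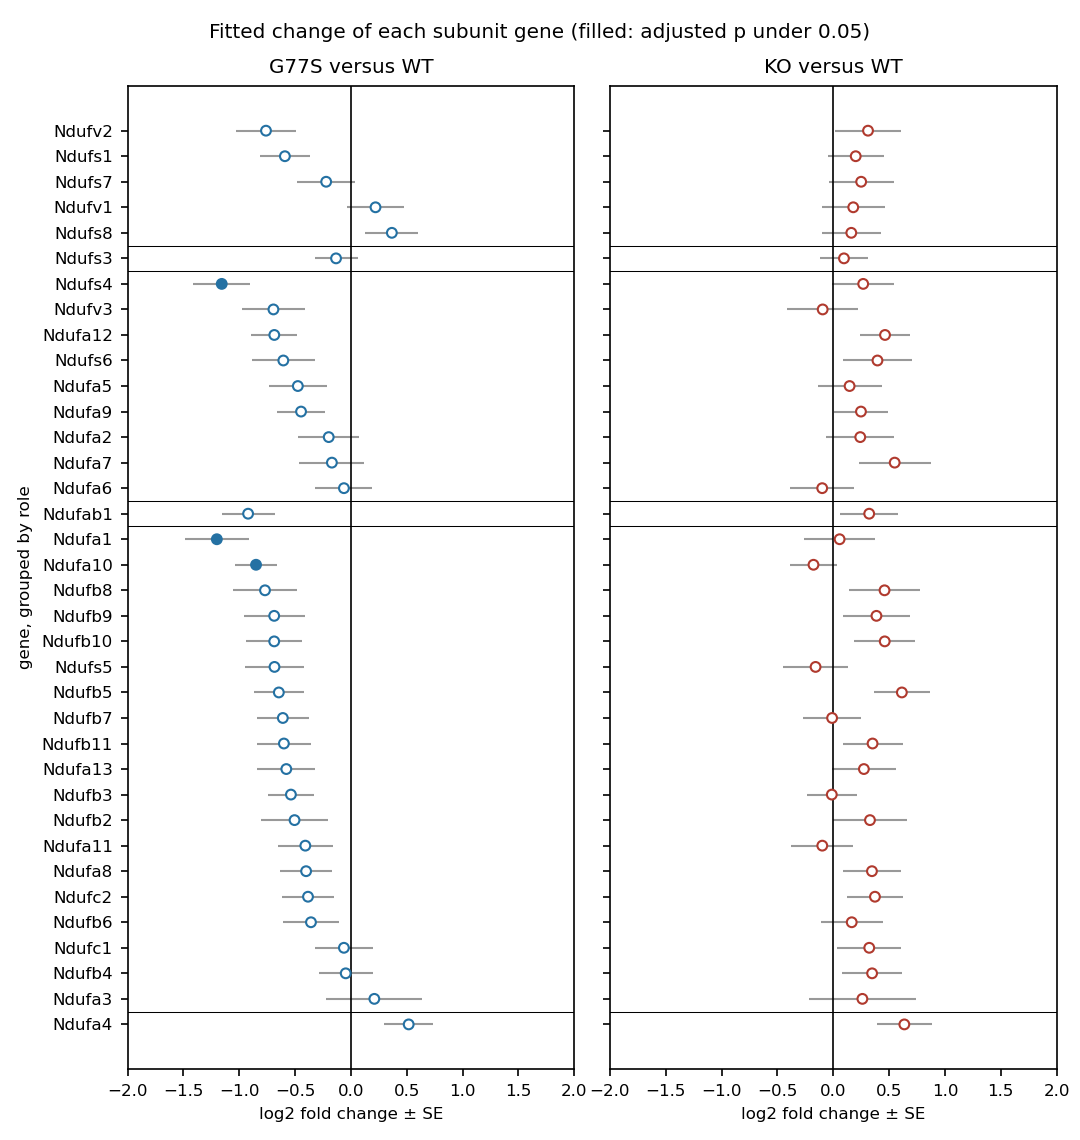
Fitted log2 fold change ± SE (x axis) of 36 of the 37 tested genes, grouped by role (y axis), for G77S versus WT on the left and KO versus WT on the right. Filled points have an adjusted p under 0.05: they are Ndufs4, Ndufa1 and Ndufa10 on the left and none on the right.

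By role in G77S versus WT, of 19 accessory genes of the membrane arm, 2 fell, 18 had a negative log2 fold change and the median was -0.58. Of 9 accessory genes of the matrix arm, 1 fell, all 9 were negative and the median was -0.48; it ran from Ndufs4 to Ndufa6, a subunit that binds an acyl carrier protein, at -0.06 ± 0.26. Ndufs3, a core subunit of the matrix arm that carries no cluster, was at -0.13 ± 0.19. Ndufab1, the mitochondrial acyl carrier protein, was at -0.92 ± 0.24 with an adjusted p of 0.061. Ndufs5, on the intermembrane-space side, had 380, 328 and 369 CPM in G77S, 435 and 598 CPM in KO, and 365, 744 and 623 CPM in WT, with WT 1 inside the G77S range.

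Ndufa4 had the largest positive value for G77S versus WT. It was named for complex I but is now assigned to cytochrome c oxidase. It had 360, 297 and 310 CPM in G77S, 296 and 404 CPM in KO, and 184, 212 and 279 CPM in WT. Both mutants lay above all WT libraries, with log2 fold changes of 0.52 ± 0.22 for G77S versus WT (adjusted p = 0.223) and 0.64 ± 0.24 for KO versus WT (adjusted p = 0.306). Without Ndufa4 and Ndufa4l2, the median of the other 36 genes was -0.52 for G77S versus WT.

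The heat map of 36 of the 37 genes shows how the libraries within a genotype differed. Summed over the group, the genes gave 10540, 9083 and 10991 CPM in G77S, 14696 and 19528 CPM in KO, and 10530, 16587 and 15687 CPM in WT. WT 1 thus lay within the G77S range. It was the lowest of the 3 WT libraries for 32 of the 37 genes, KO 1 was the lower KO library for 34, and G77S 2 was the lowest G77S library for 26. WT 1 and KO 1 also had the longest implied fragments of their genotypes, 276.5 and 292.1 bases, whereas the G77S libraries, low for most genes, had the shortest. The coefficient of variation within a genotype had a median of 14.1% in G77S, 21.7% in KO and 25.9% in WT. Ndufa3, a small membrane-arm subunit, varied most in both KO (63.7%) and WT (44.6%).

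**Figure D3:**
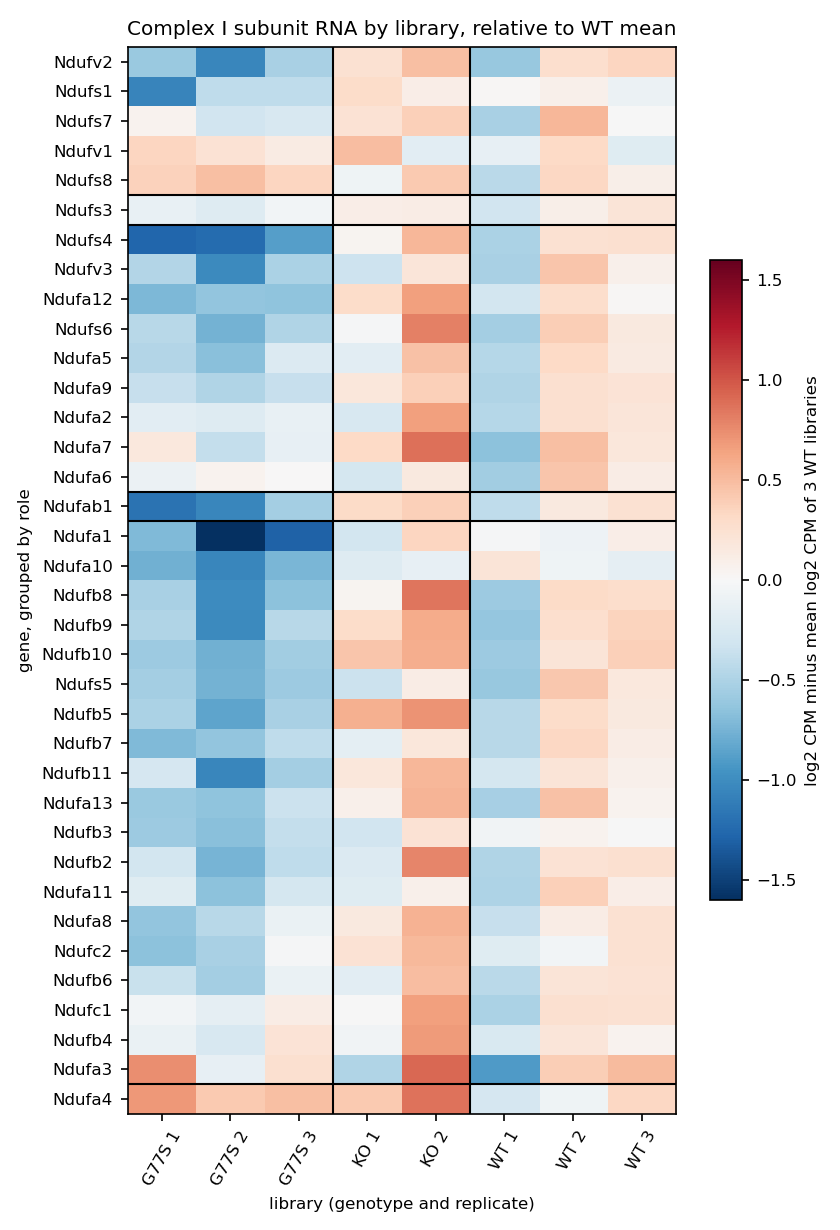
Log2 CPM of 36 tested genes (rows, grouped by role) in each library (columns) minus the mean of the 3 WT libraries, on a colour scale from blue (lower) to red (higher). The G77S columns are blue for most genes, KO 2 is the reddest column, and WT 1 is blue for most genes.

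In KO versus WT, 0 of the 37 genes passed the test in either direction with edgeR, where 0.0788% of all genes were called higher and 0.043% lower. DESeq2 and limma also called 0. At an unadjusted p under 0.05, 2 genes, Ndufa4 and Ndufb5, were higher and 0 lower, against 6.24% and 6.8% of all genes. Of the 37 log2 fold changes, 30 were positive, against 46.5% of all genes, and their median was 0.27 (range -0.18 to 0.64), beside -0.06 over all genes. Both KO libraries lay above all WT libraries for 7 genes (background 13.1%) and below them for 0 (background 12.5%). The median was 0.01 without KO 2 and 0.07 without WT 1, so its size rested on those 2 libraries.

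The genes with the largest positive values in KO versus WT, next to Ndufa4, were Ndufb5 at 0.61 ± 0.25 and Ndufa7, a matrix-arm subunit, at 0.55 ± 0.32. Ndufa7 had 551, 376 and 450 CPM in G77S, 612 and 900 CPM in KO, and 312, 683 and 555 CPM in WT, where WT 2 exceeded KO 1. The lowest were Ndufa10 at -0.18 ± 0.21, Ndufs5 at -0.16 ± 0.29 and Ndufa6 at -0.10 ± 0.29. Ndufa6 had 315, 350 and 338 CPM in G77S, 276 and 375 CPM in KO, and 228, 455 and 364 CPM in WT, with all 3 genotypes overlapping.

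G77S was also set against KO, which shares no library with it. Here 5 of the 37 genes fell and 0 rose (background 2.43% lower and 1.76% higher): Ndufs4, Ndufa12, Ndufab1, Ndufb5 and Ndufb10. At an unadjusted p under 0.05, 22 genes were lower and 0 higher (background 9.74% and 11%). The log2 fold change was negative for 34 of 37 (positive for 53.7% of all genes), with a median of -0.67 beside 0.10 over all genes. All G77S libraries lay below both KO libraries for 27 genes (background 20%) and above them for 0 (background 24.9%). The plot of genes that passed the test shows the gap.

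Ndufs4 fell by 1.42 ± 0.28 on the log2 scale in G77S versus KO (adjusted p = 0.0204), and it was the 1 gene called in both G77S comparisons, which share the G77S libraries. Ndufa12, a matrix-arm neighbour of the NADH-oxidising end (ENSMUSG00000020022, chr10:94198720-94221443, plus strand), had 284, 302 and 300 CPM in G77S, 573 and 736 CPM in KO, and 381, 568 and 476 CPM in WT. The groups did not overlap, with G77S lowest and KO highest, and it fell in G77S versus KO by 1.15 ± 0.22 (adjusted p = 0.0204). Ndufab1 (ENSMUSG00000030869, chr7:122085403-122101886, minus strand), whose protein also serves fatty acid synthesis and the machinery of cluster assembly, had 294, 324 and 459 CPM in G77S, 828 and 871 CPM in KO, and 506, 743 and 790 CPM in WT. All G77S libraries were lowest, and it fell in G77S versus KO by 1.24 ± 0.26 (adjusted p = 0.026). Its deposited length was 515 to 523 bases in G77S and 674 to 701 bases in KO, and per length the log2 fold change was -0.37 and no longer called.

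Ndufb5 and Ndufb10 are accessory subunits of the distal membrane arm. Ndufb5 (ENSMUSG00000027673, chr3:32736990-32751566, plus strand) had 276, 218 and 272 CPM in G77S, 580 and 642 CPM in KO, and 287, 478 and 433 CPM in WT. WT 1 stood just above the G77S libraries, and the gene fell in G77S versus KO by 1.26 ± 0.25 (adjusted p = 0.0208). Its exons overlap 616 bases of Mrpl47 on the other strand, and the sources do not say whether counting used strand; Mrpl47 itself had 142 to 178 CPM in G77S and 149 and 164 CPM in KO. Ndufb10 (ENSMUSG00000040048, chr17:24722060-24724478, minus strand) had 195, 171 and 197 CPM in G77S, 397 and 436 CPM in KO, and 194, 334 and 380 CPM in WT. WT 1 lay within the G77S range, and it fell in G77S versus KO by 1.15 ± 0.27 (adjusted p = 0.0433), a call lost with the term for Y-linked RNA and without WT 2. Ndufa1 missed the threshold in this comparison (-1.26 ± 0.31, adjusted p = 0.0506). All 5 calls were lost without G77S 2 (0.658% of all genes called lower) or KO 2 (0.792%). There were 2 calls without KO 1 (0.813%) and 2 without G77S 3 (1.09%), 1 call, of Ndufa1, without G77S 1 (1.08%), and 13 calls without WT 1 (3.95%).

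**Figure D4:**
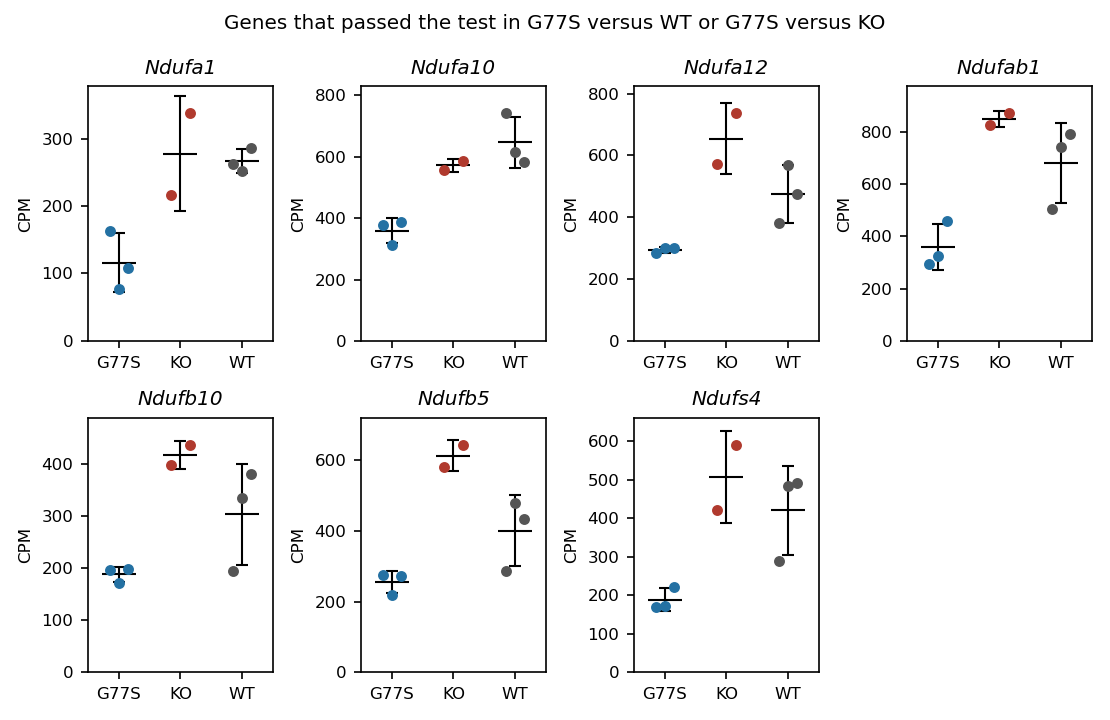
CPM (linear y axis from 0) of the 7 genes that passed the test in G77S versus WT or G77S versus KO, by genotype (x axis, G77S, KO and WT). Points are libraries, long bars are means and error bars are SD (n = 3, 2 and 3): for Ndufs4 the G77S points, 170 to 223 CPM, lie below all others.

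Counts of some of these genes are less certain than others. Reads were shared with other loci, seen as fractional counts, for 9 of the 37 genes: Ndufa12, Ndufab1, Ndufb4, Ndufb5, Ndufb6, Ndufb9, Ndufs1, Ndufs3 and Ndufs5. The other 28 had whole counts, within 0.005 of a count, in all libraries, and these include Ndufs4, Ndufa1, Ndufa10 and Ndufb10. Pseudogenes named after the family were low: Ndufb4c averaged 2.37 CPM in G77S, 9.68 CPM in KO and 7.04 CPM in WT, and Ndufs6b and Ndufa11b were under 2 CPM in every genotype. Ndufb1-ps, annotated as a noncoding gene, averaged 145 ± 12.4 CPM in G77S, 142 ± 75.7 CPM in KO and 134 ± 62.6 CPM in WT, so it was as abundant as many subunits and did not differ beyond its spread.

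The genes are short, and transcript length moved with genotype over all genes. Among the 3489 tested genes of 151 to 1198 bases, which hold 31 of the 37, the median log2 fold change for G77S versus WT over all was 0.17, while that of the 31 genes was -0.50. In KO versus WT the same length class had a median of 0.13 over all genes and 0.31 over the 31. After a fitted length trend was taken out of each library, 18 of the 37 genes were called lower in G77S versus WT, against 4.67% of all genes, and 20 in G77S versus KO, against 4.49%. The subunit medians were then -0.84 and -0.88, beside -0.16 and -0.11 over all genes. On log2(TPM + 1) the subunit medians were -0.26 and -0.34, beside 0.23 and 0.34 over all genes. Relative to the median of all genes, the subunit median for G77S versus WT was -0.54 as reported and -0.67 with the length trend removed. It was -0.49 on log2(TPM + 1) and -0.67 on log2(TPM + 0.1). The cause of the differences between settings was not tested. The plot of processing alternatives gives each value. In G77S versus WT the median log2 fold change was -1.20 for trophectoderm, 2.25 for epiblast and 4.68 for primitive endoderm genes, beside -0.50 for the subunits. In KO versus WT these medians were -0.74, 3.25 and 5.37, beside 0.27 for the subunits. The endoderm medians rested on genes with few or no counts in WT. The 4.68 was the value of Cubn, with means of 2.61 CPM in G77S and 0.10 CPM in WT. The 5.37 was that of Amn, which had 0 counts in WT, as had Sox17 and Sox7. The part of cell types in the result was not tested.

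**Figure D5:**
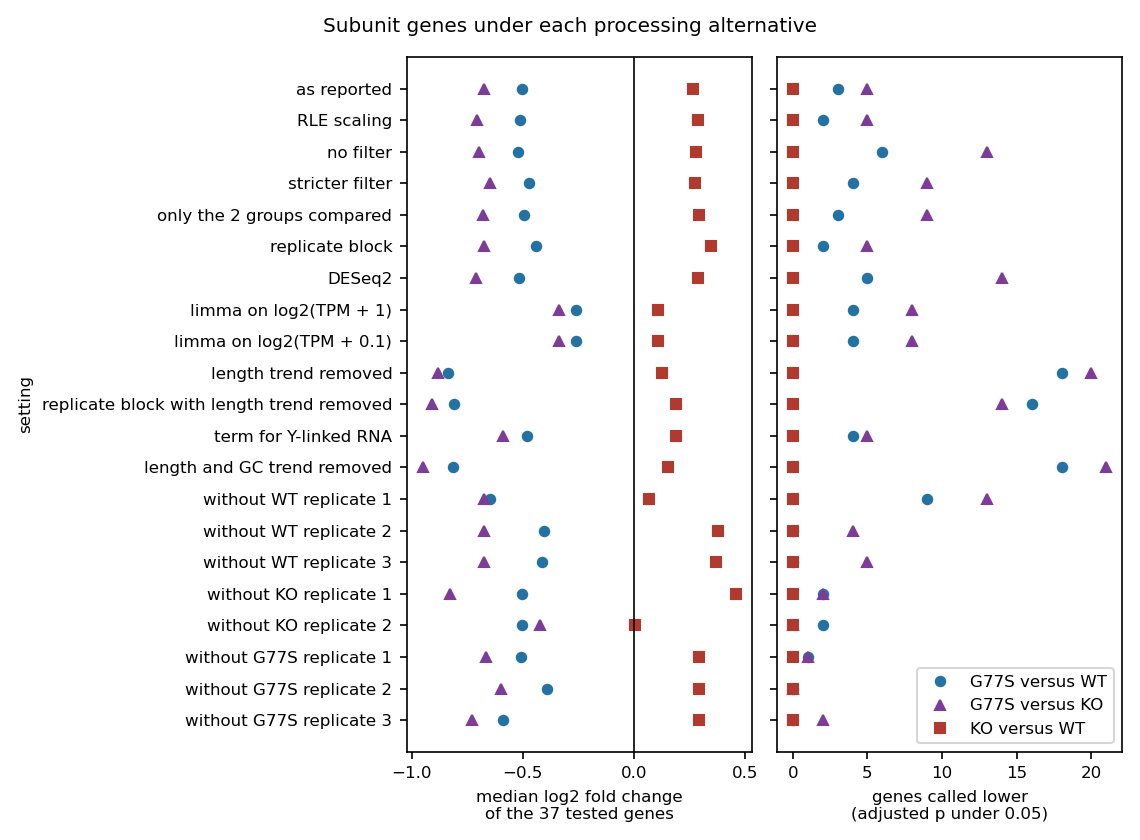
Median log2 fold change of the 37 tested genes (left x axis) and number called lower (right x axis) under each processing setting (y axis); circles are G77S versus WT, triangles G77S versus KO and squares KO versus WT, and points with equal values coincide. The G77S medians are negative in every setting, while the calls run from 0 to 18 versus WT and from 0 to 21 versus KO.

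Assembly factors, which build the complex but are not part of it, had a median close to that of all genes, 0.03, in G77S versus WT. Of 19 tested genes, 1 fell and 0 rose in G77S versus WT (2.09% and 1.3% of all genes did). The median log2 fold change was 0.04, beside -0.50 for the subunits, and this difference between lists was not tested. The 1 gene was Ndufaf1, an early assembly factor, which had 27.6, 39.0 and 33.5 CPM in G77S, 61.2 and 65.9 CPM in KO, and 70.5, 69.9 and 68.1 CPM in WT. All G77S libraries were lowest, and it fell versus WT by 1.06 ± 0.25 on the log2 scale (adjusted p = 0.0454). In G77S versus KO, 1 rose and 1 fell (1.76% and 2.43% of all genes did). The log2 fold change was negative for 15 of the 19 there, with a median of -0.36 beside 0.10 over all genes. Both KO libraries lay above all G77S libraries for 10 of the 19 (background 20%) and below them for 2 (background 24.9%). Acad9, an assembly factor of the acyl-CoA dehydrogenase family, had 227, 220 and 258 CPM in G77S, 74.9 and 116 CPM in KO, and 167, 180 and 191 CPM in WT, and rose in G77S versus KO by 1.30 ± 0.25 (adjusted p = 0.0204). Tmem126b, a membrane-bound assembly factor, fell in G77S versus KO by 1.41 ± 0.32 (adjusted p = 0.0374), with means of 34.9 ± 11.9 CPM in G77S (n = 3) and 92.3 ± 17.0 CPM in KO (n = 2). In KO versus WT 0 of the 19 passed the test, and 2 were higher and 1 lower at an unadjusted p under 0.05 (6.24% and 6.8% of all genes were).

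The 7 subunits encoded by mitochondrial DNA gave 0 calls in any of the 3 comparisons with edgeR. At an unadjusted p under 0.05, 1 was higher and 0 lower in G77S versus WT (10.3% and 9.78% of all genes were). In G77S versus KO 2 were higher and 1 lower (11% and 9.74% of all genes), and in KO versus WT 0 passed (6.24% higher and 6.8% lower over all genes). The most abundant, mt-Nd1, had 8794, 4042 and 3217 CPM in G77S, 7198 and 6158 CPM in KO, and 3640, 4022 and 4375 CPM in WT. G77S 1 stood far above the other G77S libraries, so G77S spanned both other genotypes. mt-Nd4 averaged 2428 ± 245 CPM in G77S, 2931 ± 684 CPM in KO and 2837 ± 200 CPM in WT. The median over the 7 was 0.28 for G77S versus WT, against -0.50 for the nuclear genes.

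Among 6 tested genes of late iron-sulfur assembly, Isca2 itself fell in KO versus WT (-4.64 ± 0.41, log2 scale, adjusted p = 0.00387). Of the 6 genes, 0 passed in G77S versus WT, where 0 were higher and 1 lower at an unadjusted p under 0.05 (10.3% and 9.78% of all genes were). In G77S versus KO, Isca2 was higher by 4.30 ± 0.40 (adjusted p = 0.00099). Nfu1, a carrier that delivers clusters to recipient proteins, had 220, 210 and 222 CPM in G77S, 446 and 416 CPM in KO, and 198, 300 and 276 CPM in WT, and it fell in G77S versus KO by 0.99 ± 0.22 (adjusted p = 0.0352). KO was the genotype that stood apart for Nfu1, with both libraries above all others. Isca1, the partner of ISCA2, averaged 176 ± 33.9 CPM in G77S, 224 ± 16.3 CPM in KO and 221 ± 51.8 CPM in WT and passed no test.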

How the data were processed

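RNA-seq of 8 mouse blastocyst libraries was used. The authors deposited RSEM gene tables, 1 per library, with expected counts, TPM and FPKM per the file headers; reads of several genes are split, so expected counts can be fractional. Per the submitters' processing notes, the tools were STAR 2.6.1c, RSEM 1.3.1, Trim Galore 0.4.5 and DESeq2 1.42.1. The deposited FPKM values were not used. Annotation release and strand setting: not given in the sources used here.

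GENCODE M21 names (GRCm38) matched 55144 of 55471 gene IDs (99.4%). Rounded expected counts entered edgeR 4.0.16 (R 4.3.3; low-count filter, TMM scaling, quasi-likelihood F test over all 8 libraries, Benjamini-Hochberg over 13953 genes, calls under 0.05), the source of each adjusted p for which no other tool is named. Levels are TMM-scaled CPM with SD; the SE of a fold change is its size over the square root of F. Totals of 10323965 to 23842619 counts left at least 993 counts for each tested subunit gene, so counting error is small beside library spread. In 0 counts, up to 3 counts (0.139 to 0.298 CPM) are possible, for counting error only.

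Alternatives were RLE scaling, 2 filters, DESeq2 1.42.0, limma 3.58.1 on log2(TPM + 1) and log2(TPM + 0.1), a fit of only the 2 groups compared, a replicate block, trends of length and GC removed, a Y-linked RNA term and each library left out. The analysis was tested on simulated data. Values per library are given for the cluster-carrying subunits, genes called, and the 3 largest changes in each direction per comparison. Values of 1 gene, included in the counts and medians, are not reported here. Members and lists were chosen with earlier results of these data known.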

Additional observations from a re-analysis of the deposited data

Results flagged for a closer look

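For 5 subunit genes the G77S libraries differed from the KO libraries, by the direct test of G77S versus KO (edgeR quasi-likelihood test, adjusted p under 0.05). Since both genotypes are set against the same WT libraries, the difference between their changes is this comparison. Library preparation and genotype cannot be told apart for G77S. All 5 calls were lost without G77S 1 and also without G77S 2. Without KO 2, which leaves 1 KO library, the median of the 37 tested genes was -0.42, against -0.67 with all libraries. The log2 fold changes for G77S versus KO were -1.42 for Ndufs4, -1.26 for Ndufb5, -1.24 for Ndufab1, -1.15 for Ndufa12 and -1.15 for Ndufb10. All 3 G77S libraries lay below both KO libraries for each of the 5 genes, which were picked by a test on these same libraries. The G77S libraries did so for 27 of the 37 tested genes and for 20% of all genes. Groups of 3 and 2 libraries are too small for a check of single outlying libraries.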

How the results depend on the processing

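The direction of the subunit medians for G77S versus WT and G77S versus KO was the same in all 20 alternatives, and no called value changed sign. The number called lower varied. For G77S versus WT it was 3 as reported (2.09% of all genes called lower), 6 with no filter (3.21%), 5 with DESeq2 (3.79%), 18 with the length trend removed (median -0.84, 4.67%), 16 with the replicate block and length trend removed together (median -0.81, 4.24%) and 18 with length and GC trends removed (median -0.81, 4.62%), the last chosen after seeing the data. For G77S versus KO it was 5 as reported (2.43% of all genes), 13 with no filter (3.45%), 9 with a stricter filter (5.25%), 9 with only the 2 groups compared (4.03%), 14 with DESeq2 (3.86%), 8 with limma on log2(TPM + 1) or log2(TPM + 0.1) (medians -0.34 and -0.34; 2.19% and 1.97%), 20 with the length trend removed (4.49%), 14 with the block and length trend together (3.96%) and 21 with length and GC trends removed (4.06%). The cause of these changes was not tested. Leaving out 1 library gave 0 to 9 calls for G77S versus WT (0.369% to 2.8% of all genes) and 0 to 13 for G77S versus KO (0.658% to 3.95%). In KO versus WT the calls were 0 throughout, and leaving out 1 library gave medians of 0.01 to 0.46.

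Same-numbered libraries showed little shared deviation (correlations of -0.02 to 0.07). With so few libraries per genotype, these values cannot decide whether the numbers pair the libraries. With the replicate block 2 genes, Ndufs4 and Ndufab1, were called lower for G77S versus WT (median -0.44), so the calls of Ndufa1 and Ndufa10 were lost; 5 were called for G77S versus KO (median -0.67) and 0 for KO versus WT (median 0.35). These comparisons rest on 2 KO libraries, and fragment lengths separate G77S from the rest. How far library number, depth or preparation limits them was not tested.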
